A study of Mus musculus with 11 samples.

Results

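The genes described here are 38 interferon-stimulated genes, interferon regulatory factors (IRFs) and receptor chains, taken as the platform symbols on a fixed list. All 38 were measured, each by 1 transcript cluster (the set of probes of a transcript), of 22206 clusters in all. By role they were 18 antiviral effectors, 4 feedback and other induced genes, 3 cytosolic sensors, 9 transcription factors (8 IRFs and STAT2) and 4 receptor chains. The RNA came from liver sinusoidal endothelial cells (LSEC), the fenestrated lining of the hepatic capillaries, and was hybridized to Mouse Clariom S arrays. The knockout samples (5 arrays) were Atg5lox/lox;VE-cadherin-Cre mice, in which Cre under an endothelial promoter deletes the floxed autophagy gene Atg5 in endothelium. Wild type samples (6 arrays) were Atg5lox/lox mice without Cre, so both groups carried the floxed alleles. All mice began a high fat diet at 8 weeks of age and were sampled 2 weeks later. The comparison asks how LSEC gene expression changes when endothelial autophagy is lost, at an early time of high fat feeding. VE-cadherin Cre is active in endothelium generally, not in LSEC alone.

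Interferons are cytokines of antiviral defence, and the genes they induce are transcribed by STAT proteins and IRFs. Type I interferons bind the receptor chains IFNAR1 and IFNAR2 and act through a complex of STAT proteins with IRF9, which binds the interferon-stimulated response element. Interferon gamma binds IFNGR1 and IFNGR2 and acts mainly through the gamma-activated site. Cytosolic sensors of foreign nucleic acid switch on IRF3 and IRF7, which drive the interferon genes themselves. Sinusoidal endothelium of the liver meets gut-derived microbial products and carries these receptors and sensors.

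Atg5 itself read 7.48, 7.57, 7.54, 7.90 and 7.53 on the log2 scale in knockout arrays 1 to 5, against a lowest of 7.38, a median of 7.54 and a highest of 7.59 in wild type arrays. The groups overlapped. It is not known whether these probes cover the floxed part, so Atg5 cannot serve here as a test of the labels. The 18 LSEC markers averaged between 11.46 and 11.81 in knockout arrays and between 11.45 and 11.83 in wild type arrays. Of 19 Kupffer cell and macrophage markers 18 had a difference above 0 (median 1.08 on the log2 scale), and their mean ran from 8.07 to 10.09 in knockout arrays and from 7.53 to 8.62 in wild type arrays. Of 10 stellate cell markers 9 lay above 0 (median 0.41). All 20 hepatocyte markers lay below 0 (median -0.96), with array means of 7.89 to 9.51 in knockout arrays and 8.84 to 10.32 in wild type arrays. Knockout arrays 3 and 4 and wild type arrays 1 and 6 stood apart from the others by the mean of 5222 negative control rows, at 5.75 to 5.96 against 5.05 to 5.38 in the other 7 arrays.

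The element that the type I interferon complex binds is shown first, because it is what many of these genes share in sequence. RefSeq promoter windows (GRCm38.p6, from 250 bases before to 50 after the annotated start) were at hand for 30 of the 38 genes. The core of the interferon-stimulated response element, GAAANNGAAA on either strand, was found in 13 of the 30, a share of 43.3%. Among all 27025 genes with a window the share was 3.99%. With a C after the core (GAAANNGAAAC) the shares were 33.3% of the 30 and 0.944% of all genes. The palindromic core of the gamma-activated site, TTCNNNGAA, was in 9 of the 30 (30.0%) and in 9.55% of all genes. The lines that follow give stretches of 100 bases from upstream of the start in 6 genes whose cores lie there, 5′ to 3′ on the strand of the gene. Capitals mark the GAAA words of the cores, which read as TTTC where the core lies on the opposite strand.
Isg15: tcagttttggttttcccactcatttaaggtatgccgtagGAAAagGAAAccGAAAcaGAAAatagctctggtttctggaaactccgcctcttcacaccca
Ifit1: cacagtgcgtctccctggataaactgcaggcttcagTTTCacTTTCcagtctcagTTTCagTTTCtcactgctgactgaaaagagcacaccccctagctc
Ifit3: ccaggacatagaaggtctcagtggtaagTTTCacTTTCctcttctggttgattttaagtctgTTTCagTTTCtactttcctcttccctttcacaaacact
Gbp2: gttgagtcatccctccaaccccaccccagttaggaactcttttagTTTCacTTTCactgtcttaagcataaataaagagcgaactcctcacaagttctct
Gbp3: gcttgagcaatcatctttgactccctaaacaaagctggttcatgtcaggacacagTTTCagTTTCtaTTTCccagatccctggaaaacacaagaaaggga
Bst2: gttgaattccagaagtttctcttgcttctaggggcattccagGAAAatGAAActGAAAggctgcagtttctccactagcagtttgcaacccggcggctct

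The stretches lie at chr4:156200836-156200935 (minus strand) for Isg15, chr19:34640749-34640848 (plus strand) for Ifit1, chr19:34583345-34583444 (plus strand) for Ifit3, chr3:142620559-142620658 (plus strand) for Gbp2, chr3:142559944-142560043 (plus strand) for Gbp3 and chr8:71537545-71537644 (minus strand) for Bst2. In Isg15 the word recurs so that 3 cores overlap in a row, from 78 to 57 bases before the start. Gbp3 and Bst2 each have 2 overlapping cores. Ifit1 and Ifit3 each have 2 separate cores, both on the opposite strand, and Gbp2 has 1. The other 7 genes with a core were Stat2, Irf2, Rsad2, Oas1a, Oas3, Ifih1 and Ddx58, the last pair with the core after the start. A gamma-activated site core was found in the windows of Irf1, Irf8, Irf2, Ifnar1, Ifnar2, Ifit2, Ifi35, Oas1a and Bst2. In the window of Bst2 the cores of both kinds overlap, from -136 to -128 and from -130 to -115 relative to the start. The match describes the letters and is not a measured binding site.

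**Figure D1:**
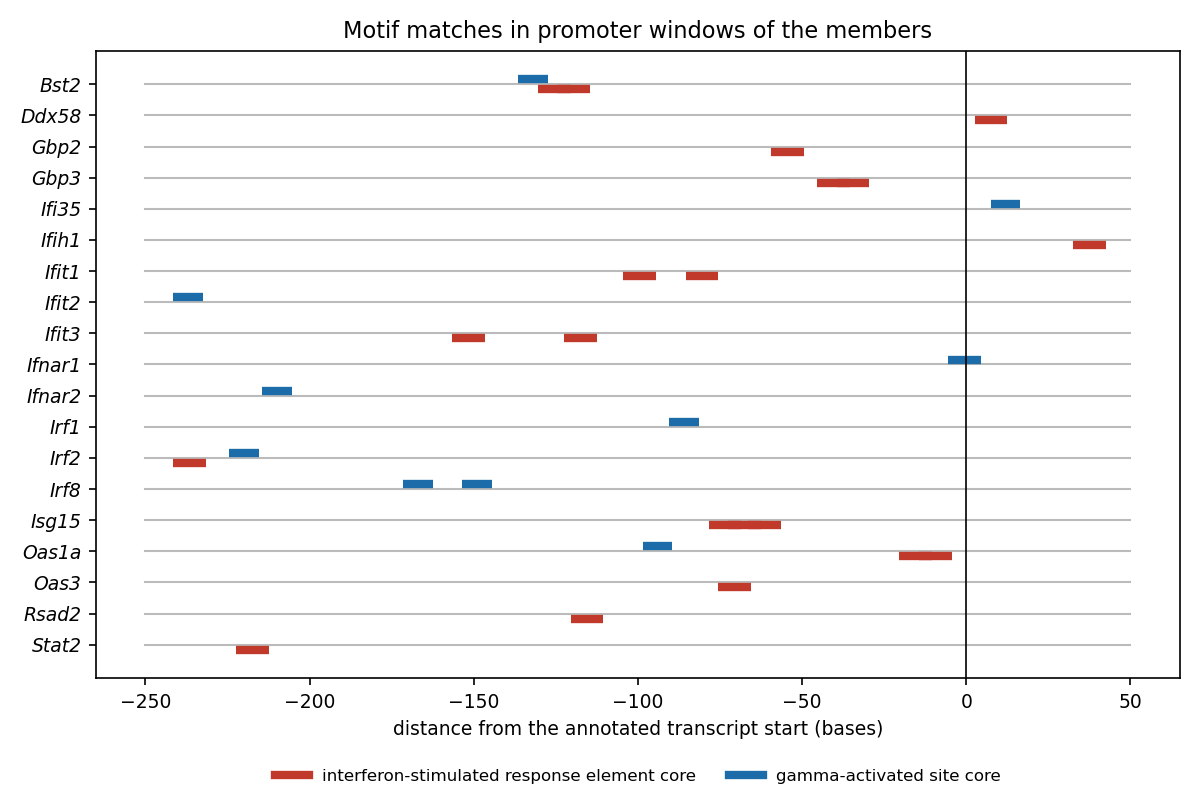
Positions of motif matches in the promoter windows of 19 interferon genes, in bases from the annotated transcript start (vertical line). Red bars are response element cores and blue bars gamma-activated site cores, and each grey line is the window searched. Most red bars lie before the start, at -156 or nearer.

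Most of the 38 genes lay slightly higher in knockout, and none was called. The median log2 difference (knockout minus wild type) was 0.15, against -0.018 over all clusters, and 29 of the 38 lay above 0, where 45.9% of all clusters did. None met the study's own rule of at least 1.5-fold with an unadjusted p of at most 0.05, which 0.671% of all clusters met as higher and 0.356% as lower. In limma's fit over all clusters 0 of the 38 passed an adjusted p of 0.05, as did 0 (0%) of all clusters, and the smallest adjusted p among the 38 was 0.765. At an unadjusted p of 0.05, Ifngr1 and Oas3 were higher and none was lower, beside 2.61% of all clusters higher and 3.78% lower. Neither kept it in every alternative fit: with the replicate number as a block the unadjusted limma p was 0.066 for Ifngr1 and 0.117 for Oas3. The 95% interval lay inside a 1.5-fold change in both directions for 20 of the 38 genes, beside 16834 of all 22206 clusters. For the other 18 genes it reached past 1.5-fold on at least 1 side. The median SE was 0.195 among the 38 and 0.145 over all clusters. In knockout array 2, 17 of the 38 genes had their highest value of all 11 arrays, where 18.2% of all clusters had theirs. This array also had the highest means of the macrophage markers and of the stellate cell markers. Its hepatocyte marker mean (9.51) was the highest within knockout. Knockout array 4 had the lowest value for 10 of the 38, beside 9.32% of all clusters. Without knockout array 2 the median difference was 0.072. Whether the macrophage, stellate cell or hepatocyte markers have a part in these differences was not tested. From bulk RNA, fewer cells of a type and less RNA per cell cannot be told apart.

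**Figure D2:**
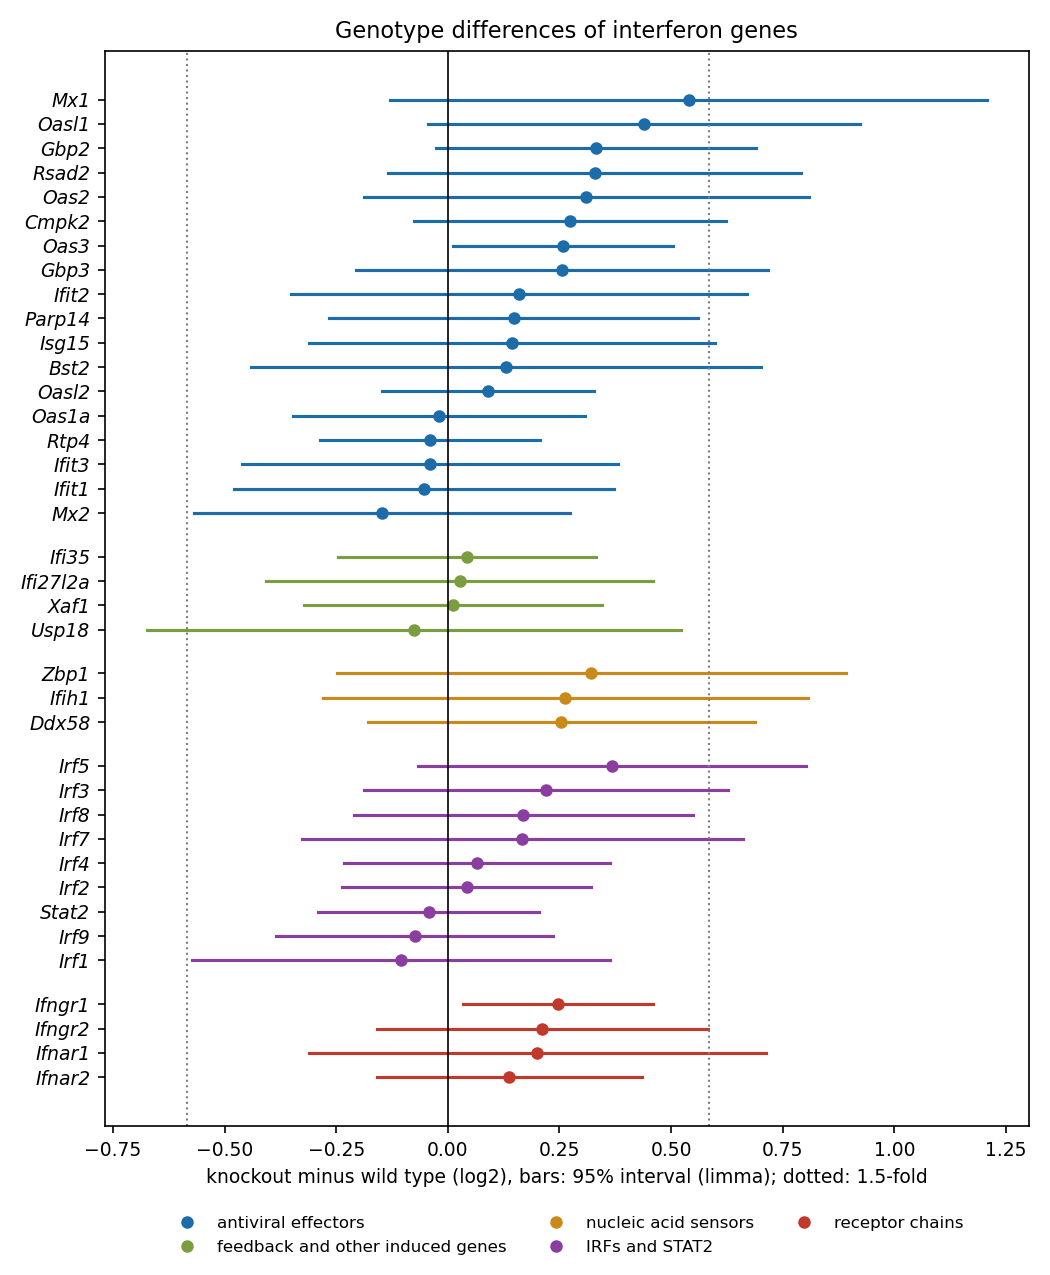
Difference between genotypes (knockout minus wild type, log2) for each of the 38 genes, grouped by role, with 95% intervals from limma (n = 5 knockout and 6 wild type arrays). Dotted lines mark 1.5-fold. Only the intervals of Ifngr1 and Oas3 leave out 0, and both stay inside 1.5-fold.

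The receptor chains were all above 0. Ifngr1, the ligand-binding chain of the interferon gamma receptor, read 9.09, 9.37, 9.0, 9.01 and 9.04 in knockout arrays 1 to 5, against a lowest of 8.76, a median of 8.86 and a highest of 8.95 in wild type arrays. Every knockout array lay above every wild type array, and knockout array 2 stood far above the others of its group. Groups that do not overlap in this direction made up 0.180% of all clusters, and none of the 38 was separated the other way (0.293% of all clusters). The difference was 0.25 (SE 0.098, 95% interval 0.035 to 0.46), a 1.19-fold higher level, with an exact permutation p = 0.0022, the smallest that 462 splits can give. It did not pass in limma's fit (adjusted p = 0.765). Without knockout array 2 the difference of Ifngr1 was 0.18, with an unadjusted limma p of 0.077, and after repeated quantile normalization it was 0.15 (p of 0.154).

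Ifngr2, the signalling partner of that chain, read 8.72, 9.18, 8.14, 8.53 and 8.52 in knockout arrays, against a lowest of 8.03, a median of 8.46 and a highest of 8.71 in wild type arrays. The groups overlapped, and the difference was 0.21 (SE 0.17). Ifnar1, a chain of the type I receptor, read 8.60, 8.87, 7.64, 7.79 and 7.87 in knockout arrays, against a lowest of 7.51, a median of 8.01 and a highest of 8.32 in wild type arrays. Knockout arrays 1 and 2 lay above all others for Ifnar1 and the other 3 below the wild type mean, so its difference of 0.20 (SE 0.24, 95% interval -0.31 to 0.71) was smaller than the spread. Ifnar2, its partner chain, read 11.26, 11.55, 10.86, 10.90 and 11.21 in knockout arrays, against a lowest of 10.82, a median of 11.06 and a highest of 11.21 in wild type arrays, a difference of 0.14 (SE 0.14). Knockout array 2 was the highest of the 11 arrays for all 4 chains. It also had the highest means of the macrophage markers (10.09) and of the stellate cell markers (9.35). Their exact permutation p-values were 0.297 for Ifngr2, 0.468 for Ifnar1 and 0.346 for Ifnar2. In the fit with array weights Ifnar1 turned to -0.031.

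**Figure D3:**
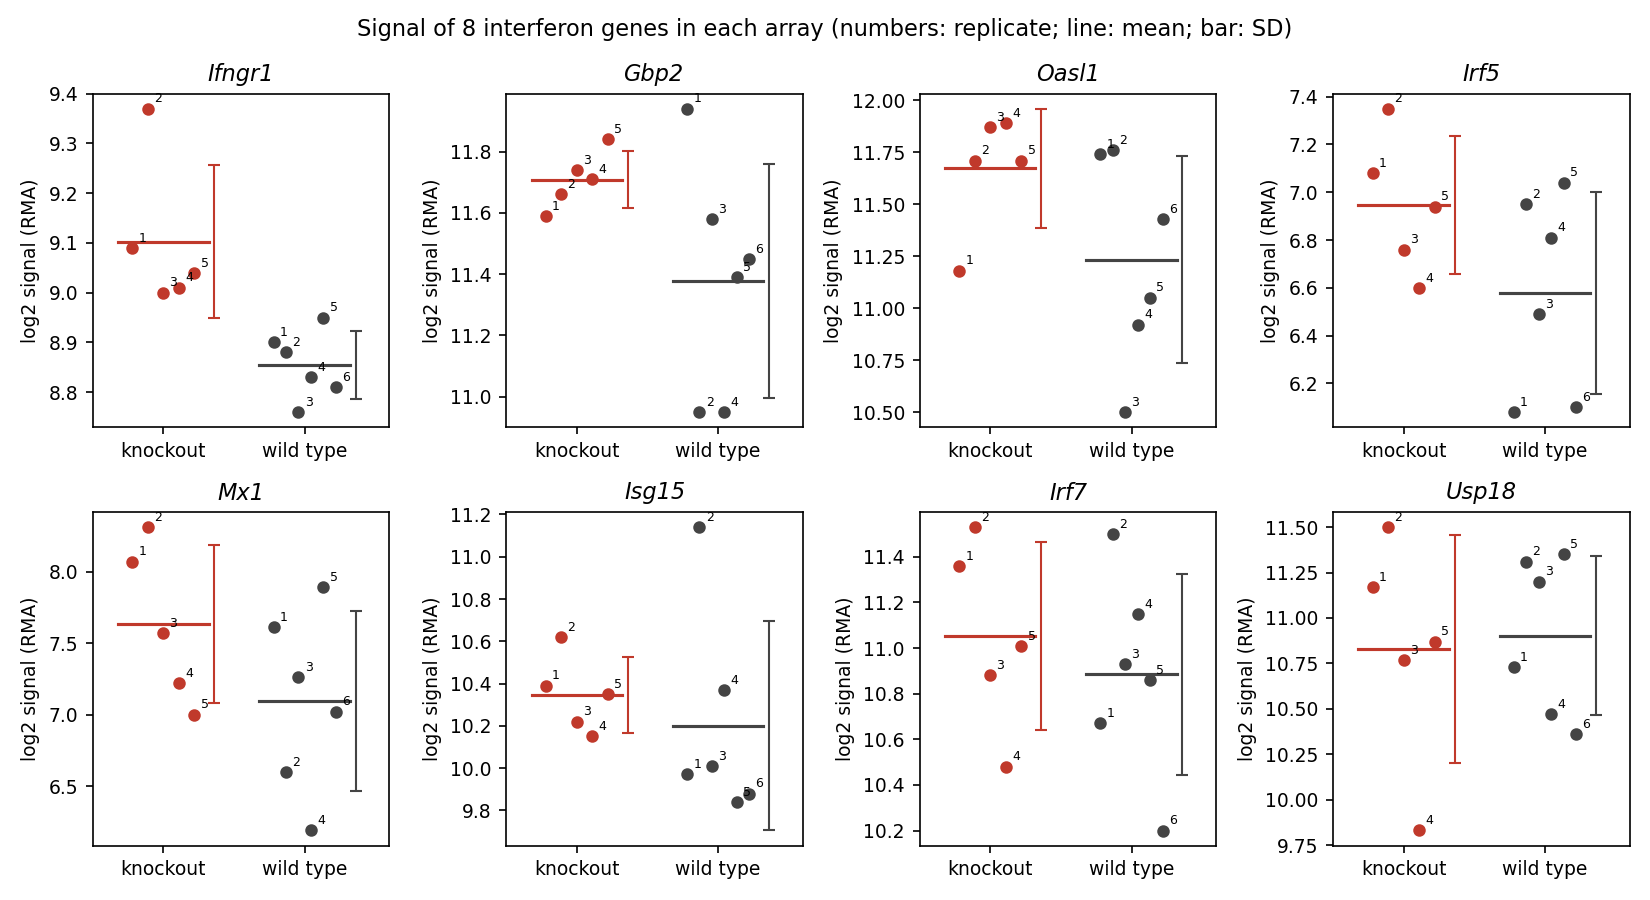
Log2 signal of 8 of the genes in each array, knockout left and wild type right, with replicate numbers, group mean (line) and SD (bar). The groups do not overlap for Ifngr1 and overlap for the other 7.

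Among the transcription factors, 0 of 9 were called, 6 lay above 0 and the median difference was 0.066. Irf9, the DNA-binding partner of the STATs in the type I complex, read 10.31, 10.55, 10.15, 9.78 and 10.08 in knockout arrays, against a lowest of 10.01, a median of 10.25 and a highest of 10.55 in wild type arrays. Stat2, its partner, read 10.22, 10.40, 10.24, 9.98 and 10.12 in knockout arrays, against a lowest of 10.05, a median of 10.18 and a highest of 10.46 in wild type arrays. The groups overlapped over most of their range for these genes, with differences of -0.074 (95% interval -0.38 to 0.24) for Irf9 and -0.043 (-0.29 to 0.20) for Stat2. Irf7, which amplifies interferon production and is itself induced by interferon, read 11.36, 11.53, 10.88, 10.48 and 11.01 in knockout arrays, against a lowest of 10.20, a median of 10.90 and a highest of 11.50 in wild type arrays. The difference was 0.17 (SE 0.23), with an exact permutation p = 0.526, and the range within each genotype exceeded 1 log2 unit.

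Irf3, the constitutive factor that the sensors activate, read 7.86, 8.20, 7.50, 7.56 and 7.69 in knockout arrays, against a lowest of 7.04, a median of 7.54 and a highest of 8.02 in wild type arrays, a difference of 0.22 (SE 0.19). Irf1, an activator induced by interferon gamma, read 12.10, 12.17, 11.39, 11.06 and 11.53 in knockout arrays, against a lowest of 11.25, a median of 11.84 and a highest of 12.19 in wild type arrays, a difference of -0.11 (SE 0.22). Neither separated the genotypes, with exact permutation p = 0.310 for Irf3 and 0.673 for Irf1. Irf2, which binds the same sites as Irf1 and can oppose it, differed by 0.042 (SE 0.13). Irf5, a factor of Toll-like receptor signalling in myeloid cells, had the highest difference of the IRFs and read 7.08, 7.35, 6.76, 6.60 and 6.94 in knockout arrays, against a lowest of 6.08, a median of 6.65 and a highest of 7.04 in wild type arrays. The wild type mean was below each of the 5 knockout arrays, but wild type arrays 2, 4 and 5 lay among them, and the difference of 0.37 (SE 0.20) had an exact permutation p = 0.145. Irf3, Irf4 and Irf5 lay below the 95th percentile of the antigenomic background rows in all 11 arrays. Irf8, needed for the development of macrophages and dendritic cells, read 10.23, 10.29, 9.50, 9.57 and 9.83 in knockout arrays, against a lowest of 9.39, a median of 9.74 and a highest of 9.99 in wild type arrays, a difference of 0.17 (SE 0.18). Irf4, a lymphocyte and dendritic cell factor, differed by 0.066 (SE 0.14). Of the 19 macrophage markers 14 met the study's rule as higher. Median differences were -0.096 for plasmacytoid dendritic cell markers (a list that includes Bst2), -0.069 for conventional dendritic cells and -0.087 for B cells and plasma cells. For T and NK cell markers the median was 0.16 (8 of 9 above 0), and for neutrophil and monocyte markers 0.0037 (5 of 9 above 0). None of the markers in these other lists met the rule. The part of any of these cell types in the levels of Irf5 and Irf8 was not tested.

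The cytosolic sensors had a median of 0.26, and their groups overlapped. Ifih1 encodes MDA5, a sensor of long double-stranded RNA, and differed by 0.26 (SE 0.25). Ddx58 encodes RIG-I, which senses viral RNA ends, and differed by 0.25 (SE 0.20). Zbp1 binds Z-form nucleic acid and can trigger necroptosis, and differed by 0.32 (SE 0.26). Wild type array 4 had the lowest sensor mean of all 11 arrays (9.23), while the knockout arrays ran from 9.95 to 10.10 and the other wild type arrays reached 10.04. Without it the difference of Ifih1 was 0.076 and that of Ddx58 was 0.13. Zbp1 read 7.79 in that array and was lowest in wild type array 6, at 7.13. With single arrays left out the difference of Zbp1 ran from 0.18 to 0.48. Zbp1 was above the 95th percentile of the antigenomic background rows in 2 of 11 arrays.

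Of the antiviral effectors 13 of 18 lay above 0, with a median of 0.15 and a range from -0.15 (Mx2) to 0.54 (Mx1). Mx1, a dynamin-like GTPase that blocks influenza virus and is defective in many laboratory strains, read 8.07, 8.31, 7.57, 7.22 and 7.0 in knockout arrays, against a lowest of 6.19, a median of 7.14 and a highest of 7.89 in wild type arrays. The groups overlapped, and the difference of 0.54 (SE 0.31) had an exact permutation p = 0.167. It met the study's rule only when wild type array 5, where it was highest in that genotype, was left out (0.70). Mx1 was above the 95th percentile of the antigenomic background rows in 1 of 11 arrays, so its difference lies near background. Mx2, the other GTPase of this kind, lay below 0 at -0.15 (SE 0.20).

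The guanylate-binding protein gene Gbp2, whose product attacks pathogen vacuoles, read 11.59, 11.66, 11.74, 11.71 and 11.84 in knockout arrays, against a lowest of 10.95, a median of 11.42 and a highest of 11.94 in wild type arrays. The knockout arrays lay close together and inside the wild type range, with wild type array 1 above them and wild type arrays 2 and 4 far below. The difference was 0.33 (SE 0.17), with an exact permutation p = 0.106, and Gbp3 of the same family differed by 0.26 (SE 0.21). Oasl1, an OAS-like protein that in mice restrains the translation of Irf7, read 11.18, 11.71, 11.87, 11.89 and 11.71 in knockout arrays, against a lowest of 10.50, a median of 11.24 and a highest of 11.76 in wild type arrays. In knockout, 4 arrays were near the wild type maximum and array 1 was below the wild type mean, so the difference of 0.44 (SE 0.22) came with an exact permutation p = 0.117. Rsad2 encodes viperin, which makes a chain-terminating nucleotide, and read 11.85, 11.85, 12.50, 12.53 and 12.38 in knockout arrays, against a lowest of 11.34, a median of 11.82 and a highest of 12.50 in wild type arrays. Cmpk2, a nucleotide kinase gene, read 11.17, 11.77, 11.69, 11.40 and 11.69 in knockout arrays, against a lowest of 10.71, a median of 11.33 and a highest of 11.61 in wild type arrays. The differences were 0.33 (SE 0.21) for Rsad2 and 0.27 (SE 0.16) for Cmpk2, each less than the range within wild type.

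Isg15, a ubiquitin-like protein attached to target proteins, read 10.39, 10.62, 10.22, 10.15 and 10.35 in knockout arrays, against a lowest of 9.84, a median of 9.99 and a highest of 11.14 in wild type arrays. Wild type array 2 was higher than every knockout array, and the other wild type arrays but array 4 were lower than all of them. Without wild type array 2 the difference of Isg15 was 0.33, with an unadjusted limma p of 0.027. Ifit1, an RNA-binding inhibitor of viral translation, read 12.09, 11.80, 11.42, 11.06 and 11.77 in knockout arrays, against a lowest of 11.17, a median of 11.76 and a highest of 12.09 in wild type arrays. Over all arrays the differences were 0.14 (95% interval -0.31 to 0.60) for Isg15 and -0.054 (-0.48 to 0.37) for Ifit1, while its relatives Ifit2 and Ifit3 stood at 0.16 (SE 0.24) and -0.040 (SE 0.20). The oligoadenylate synthetases, which make the activator of RNase L, stood at -0.020 (SE 0.15) for Oas1a and 0.31 (SE 0.23) for Oas2. Oas3 read 4.47, 4.67, 4.32, 4.19 and 4.35 in knockout arrays, against a lowest of 3.94, a median of 4.13 and a highest of 4.34 in wild type arrays, a difference of 0.26 (SE 0.11, exact permutation p = 0.028). Oas3 lay below the mean of the antigenomic background rows in all 11 arrays, so this is a difference within background. Without knockout array 2 it was 0.19 for Oas3, with an unadjusted limma p of 0.114. The remaining 4 effectors were Bst2 (tetherin, which holds virus particles at the cell surface) at 0.13 (SE 0.26), Parp14 (an ADP-ribosyltransferase) at 0.15 (SE 0.19), Oasl2 at 0.090 (SE 0.11) and Rtp4 at -0.040 (SE 0.11).

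Usp18, which removes ISG15 from proteins and damps signalling at IFNAR2, read 11.17, 11.50, 10.77, 9.83 and 10.87 in knockout arrays, against a lowest of 10.36, a median of 10.97 and a highest of 11.35 in wild type arrays. Knockout array 4 was the lowest and array 2 the highest of the 11, and the difference was -0.075 (95% interval -0.67 to 0.52). The other 3 induced genes differed by 0.012 (Xaf1, a pro-apoptotic protein gene), 0.026 (Ifi27l2a) and 0.043 (Ifi35). The intervals lay inside 1.5-fold for 3 of the 4 genes of this role, beside 16834 of all 22206 clusters.

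**Figure D4:**
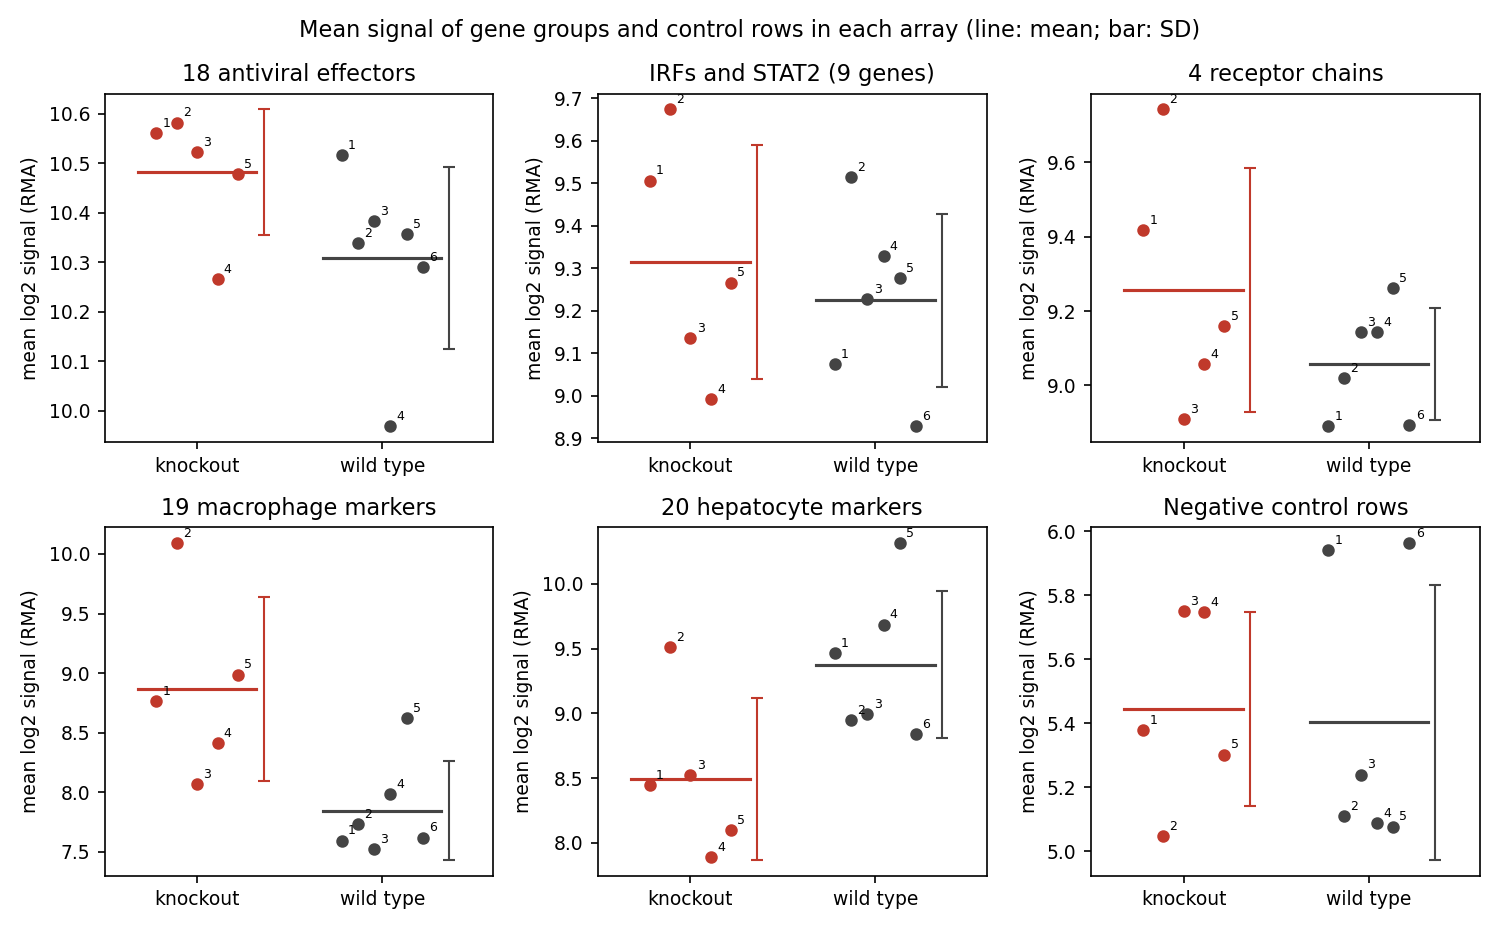
Mean log2 signal in each array of the effectors, the transcription factors, the receptor chains, the macrophage and hepatocyte markers and the negative control rows (knockout left, wild type right; line, mean; bar, SD). Knockout array 2 is the highest in the first 4 panels, and knockout arrays 3 and 4 and wild type arrays 1 and 6 are set apart in the last.

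Many of the genes also differed between the arrays of high and of low control signal, in the same direction in both genotypes. In the 4 arrays with high control signal, 22 of the 38 genes were lower than in the other 7 within knockout and within wild type alike, where 41.4% of all clusters were. Another 10 were higher within both genotypes (30.3% of all clusters), and 6 had opposite signs or none. All 8 IRFs were on the lower side, and Stat2 was not. Irf7 differed by -0.62 between such arrays within knockout and by -0.68 within wild type, and Irf1 by -0.71 and -0.58. Usp18 (-0.88 within knockout and -0.54 within wild type), Zbp1 (-0.58 and -0.68), Bst2 (-0.44 and -0.99) and 3 of the 4 receptor chains lay on that side too.

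On the higher side were Ifih1 (0.38 within knockout and 0.89 within wild type), Rsad2 (0.49 and 0.75), Ddx58, Gbp2, Gbp3, Oasl1, Oasl2, Cmpk2, Parp14 and Ifi35. The 2 sensors of RNA thus lay opposite to the sensor Zbp1. The 4 arrays did not overlap the other 7 for Irf1, Ifnar2 and Ifi27l2a, all lower (7.17% of all clusters), and for Ifih1, Parp14 and Ifi35, all higher (6.89%), shares of the 38 close to those of all clusters. Each genotype held 2 of the 4 arrays. With the control level as a block 29 of the 38 genotype differences were again above 0, with a median of 0.17. Among the 7 arrays of low control signal the median genotype difference was 0.24, with 34 of 38 above 0, and among the 4 of high control signal it was 0.018, with 20 of 38 above 0. Irf5 differed by 0.30 within the 7 and by 0.59 within the 4, and Ifngr1 by 0.31 and 0.15. None of the 38 met the study's rule within the 7 arrays, and Irf5 alone met it within the 4. The fit within the 4 compared 2 arrays with 2. The shares of all clusters that met the rule in these fits were not counted. Irf5 was above the 95th percentile of the antigenomic rows in 0 of 11 arrays.

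**Figure D5:**
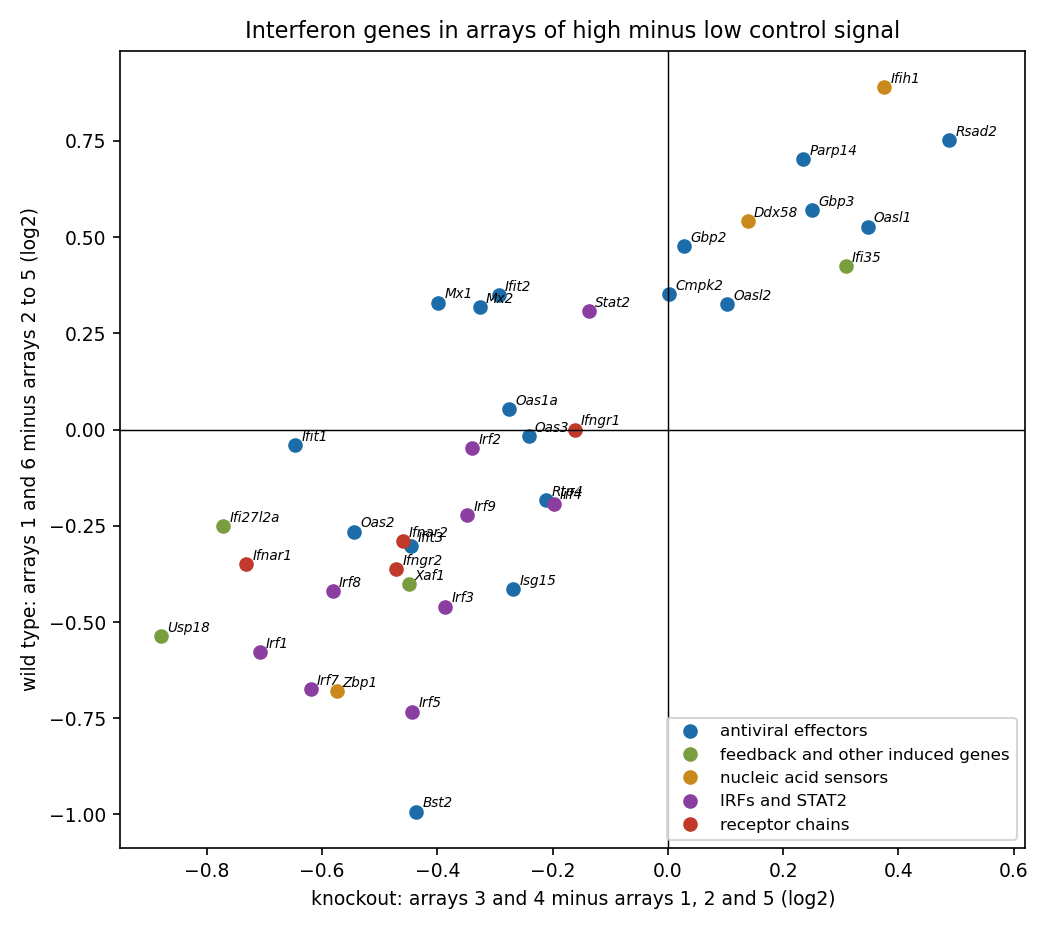
Each of the 38 genes by its log2 difference between arrays of high and of low negative control signal, within knockout (horizontal axis) and within wild type (vertical axis), coloured by role. The 8 IRFs lie at the lower left, and Ifih1, Rsad2, Parp14 and 7 others at the upper right.

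By genotype, the 13 genes with a core in their window had a median difference of 0.14 (from -0.054 to 0.33, 9 above 0), and the 17 with a window and no core had 0.17 (from -0.11 to 0.44, 15 above 0). Both medians are descriptions of these lists.

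The rest of the pathway was read from lists of genes that are not among the 38, and some listed genes were not analysed here. Over all clusters 45.9% lay above 0, 0.671% met the study's rule as higher and 0.356% as lower. Of 18 interferon genes themselves 15 lay below 0, beside 11995 of all 22206 clusters, and 0 passed the study's rule. Their median was -0.13. The 4 of smallest p were Ifne (-0.37, SE 0.17), Ifna5 (-0.30, SE 0.13), Ifna6 (-0.24, SE 0.13) and Ifna13 (-0.16, SE 0.11). Ifna13 lay above the antigenomic background mean in 1 of 11 arrays. Of the 18 genes 12 exceeded that mean in all arrays. Only Ifna5 exceeded the 95th percentile of those rows in any array (1 of 11), so the differences of this list lie near background. Of 12 receptor kinases, STATs, inhibitors and other chains 9 lay above 0 (median 0.024) and 0 met the rule. Il10rb, the chain that lambda interferon and IL-10 receptors share, stood at 0.25 (SE 0.11), and Ifnlr1, the other lambda chain, at -0.22 (SE 0.11). The phosphatases Ptpn11 and Ptpn6 stood at 0.20 (SE 0.093) and 0.46 (SE 0.31). Ifnlr1 and Ptpn6 were above the 95th percentile of the antigenomic rows in 0 of 11 arrays, so their differences lie near background. For Ptpn11 every knockout array lay above every wild type array (exact permutation p = 0.0065), as in 0.180% of all clusters. In limma's fit its unadjusted p was 0.052 and its adjusted p 0.765.

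For the lists that follow, the shares over all clusters were again 45.9% above 0 and 0.671% higher by the rule. Of 18 genes of nucleic acid sensing and its adaptors 14 lay above 0 (median 0.12), and 1 met the rule as higher. That was Tlr7, the endosomal receptor for single-stranded RNA, at 1.31 (SE 0.31). Tlr7 was above the 95th percentile of the antigenomic rows in 2 of 11 arrays, and Rnaseh2b, Tlr8 and Tlr9 were in none. The level of Tlr7 was 7.93 ± 0.40 in knockout arrays and 6.62 ± 0.71 in wild type arrays (SD, n = 5 and n = 6), with an exact permutation p = 0.011. Wild type array 5 was the only one of its group to reach the knockout range, at 7.78, and it also had the highest macrophage marker mean of its group (8.62). The part of the macrophage markers in Tlr7 was not tested. The others of smallest p were Rnaseh2b (0.36, SE 0.12), a subunit of an RNase that clears RNA from DNA hybrids, Tlr9 (0.35, SE 0.22) and Tlr8 (0.36, SE 0.25). The groups did not overlap for Rnaseh2b (exact permutation p = 0.0065), as in 0.180% of all clusters with knockout higher. In limma's fit its unadjusted p was 0.0094 and its adjusted p 0.765. Of 59 other interferon-stimulated genes 46 lay above 0 (median 0.060), and 1 met the rule, Ms4a4c at 0.60 (SE 0.21). That call was lost without any 1 of knockout arrays 1 and 4 and wild type arrays 2, 3 and 6, where Ms4a4c differed by 0.51 to 0.58. By p, Apobec1 (0.37, SE 0.17), Slfn1 (0.34, SE 0.16) and Epsti1 (0.41, SE 0.20) followed. Ms4a4c, Slfn1 and Epsti1 were above the 95th percentile of the antigenomic rows in 0 of 11 arrays, so these differences too lie near background. The 13 interferon-induced GTPases had a median of 0.060, 9 above 0 and 0 past the rule, with Tgtp2 (-0.13), Gbp4 (0.14), Gbp9 (0.23) and Gbp8 (0.19) of smallest p. None of these 120 genes passed the adjusted p over all clusters.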

How the data were processed

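RNA of 11 LSEC samples was measured on Mouse Clariom S arrays. Per the labels' protocols Trizol was used for extraction and the cDNA carried biotin. The authors deposited log2 values, made with Affymetrix Expression Console and RMA per the submitters' processing notes (the sources used here give no version or genome build). RMA equalizes the arrays' distributions, so a shift shared by most genes is removed and weak signals are compressed. The log2 scale was read from the range, 2.15 to 13.79. The number of arrays limits the precision.

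Groups came from the titles. They call the replicates biological without saying how many mice each one holds, so a p-value speaks only of the spread among these arrays, part of which may be technical. Replicate numbers 1 to 5 occur in both groups, but same-numbered arrays did not deviate together (correlations of 0.006, 0.389, 0.0786, -0.321 and 0.025), so they were not treated as pairs. The 22206 clusters were fitted with limma 3.58.1 in R 4.3.3 (genotype only, Benjamini-Hochberg adjustment), without the 6640 control rows. Single genes also had an exact permutation test over arrays (two-sided, difference of means). The fit was tested on simulated data. Symbols came from the platform annotation and all 38 matched RefSeq (GRCm38.p6) by gene identifier. Alternatives were each array left out, the replicate number as a block, other normalizations, array weights, another variance model, a filter on dim clusters and, chosen after seeing the data, the control row level. Background was the mean of 23 antigenomic rows per array, which 37 of the 38 genes exceeded in all arrays. Against their 95th percentile 28 did. Another 4 (Mx1, Zbp1, Ifnar1 and Ifngr2) did in some arrays and 6 (Oas2, Oas3, Ifi27l2a, Irf3, Irf4 and Irf5) in none. Levels of different genes were not compared.

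Members and lists were chosen with earlier results of these data known. Each knockout value and the lowest, median and highest wild type value are given for the 8 genes of smallest p, for 9 genes of fixed role and for the receptor chains; of each other list the 4 genes of smallest p are named.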

Additional observations from a re-analysis of the deposited data

Results flagged for a closer look

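A single array far from the others of its group (Dixon's test, groups of 5 and 6) was found in 8 of 116 groups examined. The nominal rate is about 1 in 20. The groups share the same 11 arrays, and the share over all clusters was not counted, so this count has no baseline. Knockout array 2 was the highest of its group for Ifngr1 at 9.37, against 9.0 to 9.09 in the others. The same array was the lowest for Parp14 at 10.54 (the others up to 11.10), for Gbp3 at 11.35 (11.96 to 12.15) and for the interferon-induced GTPase gene Gbp9 at 9.93 (10.89 to 11.14). Knockout array 4 was the lowest for Ifit3 at 11.77 (12.46 to 12.66) and for Rtp4 at 10.73 (11.10 to 11.15). For Oasl1, knockout array 1 was the lowest at 11.18 (11.71 to 11.89). In wild type, array 1 was the lowest for Bst2 at 10.16, against 11.14 to 11.70 in the others. In all, 10 of the 38 genes had their lowest value of the 11 arrays in knockout array 4, where 9.32% of all clusters had theirs.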

How the results depend on the processing

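None of the 38 genes passed the adjusted p in any of the 20 alternative fits. At the study's rule 1 gene was higher within the 4 arrays of high control signal (Irf5). With single arrays left out 0 to 1 were (Mx1 at 0.70 without wild type array 5). The shares of all clusters that met the rule in these fits were not counted. An unadjusted p of 0.05 with no fold called 2. The median over the 38 ran from 0.072 to 0.22 with single arrays left out, and the number above 0 from 26 to 37. With the replicate block the median was 0.12, 27 genes lay above 0 and none was called. With that block the unadjusted p was 0.066 for Ifngr1 and 0.117 for Oas3. Ifngr1 also missed 0.05 with repeated quantile normalization, the trended robust variance, within and without the 4 arrays of high control signal, and without knockout array 2 or wild type array 3. Oas3 also missed it with array weights, within those 4 arrays, and without any 1 of knockout arrays 1, 2 and 5 and wild type arrays 1, 2, 3 and 6. With a single array left out, an unadjusted p under 0.05 was reached by Isg15, Mx1, Oasl1, Rsad2, Cmpk2, Gbp2 and Irf5. How many of all clusters reached it in at least 1 such fit was not counted, so this list has no baseline. Of the 38 genes 17 kept their sign in every alternative that fitted them, and 21 changed it in at least 1. Oas3, among the 17, was not fitted after the filter on dim clusters. The cause was not tested. Without the 4 arrays of high control signal the sign turned for Ifit1 (0.19), Ifit3 (0.038), Mx2 (0.089), Oas1a (0.11), Bst2 (-0.026), Usp18 (0.098) and Stat2 (0.11). Within those 4 it turned for Ifit2 (-0.25), Oasl2 (-0.065), Parp14 (-0.18), Ifi27l2a (-0.27), Ifi35 (-0.055), Ifih1 (-0.11), Ddx58 (-0.025), Irf2 (-0.13), Ifnar1 (-0.0050), Tlr8 (-0.18), Gbp4 (-0.19), Gbp8 (-0.26) and Gbp9 (-0.20). Median centring gave 0.019 for Oas1a, and the replicate block -0.052 for Xaf1 and -0.036 for Ifi27l2a. Repeated quantile normalization gave -0.050 for Xaf1, -0.045 for Ifi35 and -0.045 for Irf2. Array weights gave -0.045 for Xaf1, -0.12 for Ifi27l2a, -0.028 for Irf4 and -0.031 for Ifnar1. With single arrays left out the range spanned 0 for Ifit1 (-0.17 to 0.088), Ifit2 (-0.030 to 0.28), Ifit3 (-0.12 to 0.11), Oas1a (-0.078 to 0.080), Bst2 (-0.10 to 0.25), Rtp4 (-0.068 to 0.038), Usp18 (-0.24 to 0.17), Xaf1 (-0.056 to 0.13), Ifi27l2a (-0.16 to 0.18), Ifi35 (-0.022 to 0.12), Stat2 (-0.095 to 0.010), Irf1 (-0.24 to 0.043), Irf2 (-0.022 to 0.13), Irf4 (-0.013 to 0.15) and Irf9 (-0.17 to 0.024). Of the 120 other pathway genes 2 met the rule as higher, beside 0.671% of all clusters. With array weights 1 did, without the 4 arrays of high control signal 6 did, and within them 1 did. With single arrays left out 1 to 3 did. The shares of all clusters in these alternative fits were not counted. Within the 4, 1 was lower by the rule, 36 of the 120 lay above 0 against 81 in all arrays, and the median was -0.078. With single arrays left out that median ran from -0.0013 to 0.11. Ms4a4c no longer met the rule with the replicate block (0.53), with array weights (0.49) or within the 4 arrays of high control signal (0.58). The filter on dim clusters kept 18481 clusters and dropped Oas3. Averaging the clusters of a symbol changed nothing, as each gene had 1. The control level alternatives were chosen after seeing the data.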
